A study of Mus musculus with 8 samples.

Results

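JAK-STAT kinases, STATs and SOCS inhibitors were described here through 10 genes, namely the kinases Jak1, Jak2, Jak3 and Tyk2, the transcription factors Stat3, Stat5a, Stat5b and Stat6, and the inhibitors Socs3 and Cish. The members were all probe sets whose platform annotation gives exactly 1 of these symbols, which are 22 of 45037 probe sets on the array (controls left out) and 10 of 18193 genes with a single symbol. The 2 probe sets annotated jointly to Jak3 and Insl3 fell outside this rule. The samples were Gr1lo (Ly-6clo) and Gr1hi (Ly-6chi) blood monocytes of C57Bl/6 mice aged 12 weeks, with no treatment or engineered allele named in the labels. Each sort used leukocytes pooled from 5 mice, and each group had 4 samples from separate sorts, with 1 Affymetrix mouse 3' expression array per sample. Gr1lo cells correspond to the nonclassical monocytes that patrol the vessel wall, and Gr1hi cells to the classical monocytes that enter inflamed tissue. The single comparison asks how the RNA of these subsets differs, and every signed difference is Gr1lo minus Gr1hi on the log2 scale.

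JAK kinases sit on the inner side of cytokine receptors, and a bound cytokine brings receptor chains together so that the kinases become active. They then phosphorylate the receptor and the STAT proteins docked on it, and the STATs pair, enter the nucleus and bind short palindromic DNA elements. Among the genes switched on are those of the SOCS family, whose proteins bind the receptor or the kinase and shut the signal down. In monocytes this route carries the signals of GM-CSF, interferons, IL-4, IL-6 and IL-10. RNA level does not show whether a kinase or a STAT is phosphorylated.

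The 2 inhibitor genes are classical STAT targets, so their promoters are shown with the STAT element in capitals. RefSeq windows (GRCm38.p6) from 250 bases before to 50 after an annotated transcript start were available for all 10 genes, in 12 windows. The element searched was TTCNNNGAA, which reads the same on both strands. It occurs in 2726 of 32851 windows of the table (8.3%), and in 2 of the 12 windows here, those of Socs3 (chr11:117969317-117969616, minus strand) and Cish (chr9:107296409-107296708, plus strand).
Socs3: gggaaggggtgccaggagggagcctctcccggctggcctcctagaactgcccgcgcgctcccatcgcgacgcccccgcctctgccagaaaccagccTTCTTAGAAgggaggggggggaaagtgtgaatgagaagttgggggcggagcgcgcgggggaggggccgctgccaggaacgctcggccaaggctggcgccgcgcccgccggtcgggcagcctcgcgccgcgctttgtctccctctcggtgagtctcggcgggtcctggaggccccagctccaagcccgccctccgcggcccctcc
Cish: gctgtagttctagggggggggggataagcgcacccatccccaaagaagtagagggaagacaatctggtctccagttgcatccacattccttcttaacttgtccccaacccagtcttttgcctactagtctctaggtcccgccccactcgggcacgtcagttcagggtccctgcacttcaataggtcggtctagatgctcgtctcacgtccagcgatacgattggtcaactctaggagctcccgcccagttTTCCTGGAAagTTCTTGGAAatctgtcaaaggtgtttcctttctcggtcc
The Socs3 window holds a single match, TTCTTAGAA, at bases 97 to 105. The Cish window holds 2 matches, TTCCTGGAA at bases 251 to 259 and TTCTTGGAA at bases 262 to 270, with 2 bases between them. Elements with TTC and GAA separated by 4 bases, the spacing that STAT6 is known to accept, occur in 6.95% of all windows and in 0 of these 12. The Socs3 window lies within the RefSeq span of the gene (117966079 to 117970336), so its match is upstream only of the annotated start used here. A match describes letters and does not show that a STAT protein was bound in these cells.

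Socs3 rose in Gr1lo monocytes by more than 2-fold, Stat3, Stat5b and Jak2 rose by 1.28-fold to 1.39-fold, and Tyk2 fell. Jak1, Jak3, Stat5a, Stat6 and Cish did not pass the test. With 1 probe set per gene (the brightest), limma called 5 of the 10 genes at a Benjamini-Hochberg adjusted p under 0.05, against 32.5% of all 11546 genes tested. Of these, 4 were higher in Gr1lo, against 14.1% of all genes, and 1 was higher in Gr1hi, against 18.5%. Counted over probe sets, 12 of 22 were called, against 31.1% of all 22831 probe sets tested. The values of the groups did not overlap for 12 of the 22, 11 of them among those called, against 31.8% of all probe sets. All 22 passed the filter on dim signal. The members' median difference was 0.13 (median size 0.25), beside -0.01 for all genes (median size 0.13). A difference of at least 2-fold was seen for 1 member and for 3.88% of all genes.

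**Figure D1:**
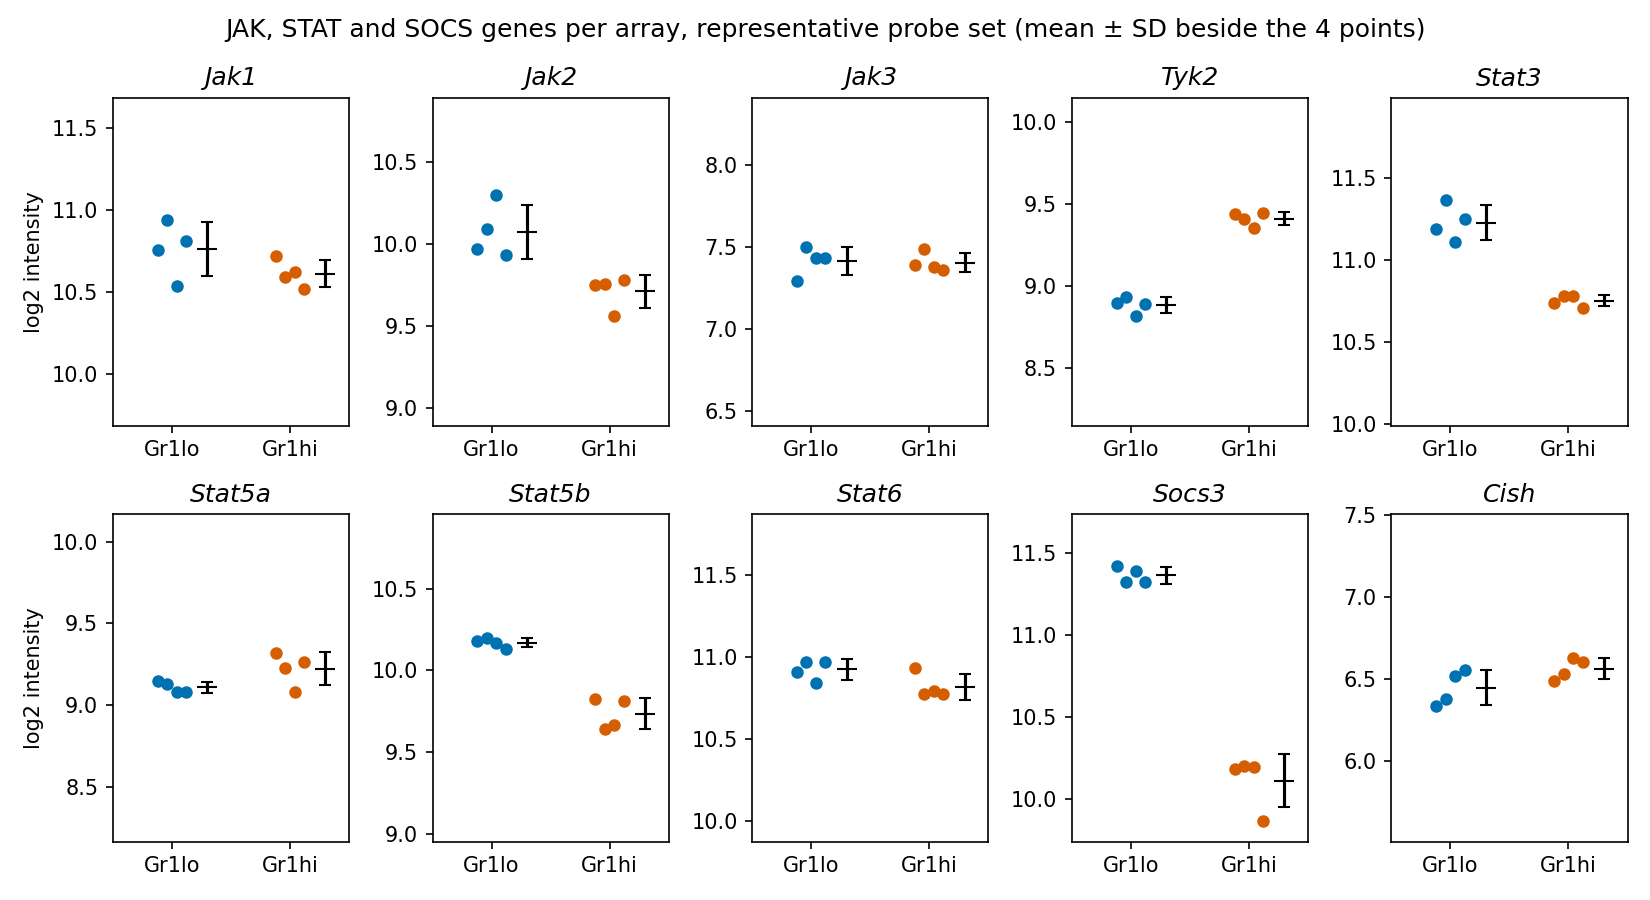
Log2 intensity of the 10 genes in each array, for the brightest probe set of each gene; points are the 4 Gr1lo arrays (blue) and the 4 Gr1hi arrays (orange), with mean ± SD in black, and every panel spans 2 log2 units. Socs3, Stat3, Stat5b and Jak2 lie wholly higher in Gr1lo, Tyk2 lies wholly lower, and the other genes overlap.

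**Figure D2:**
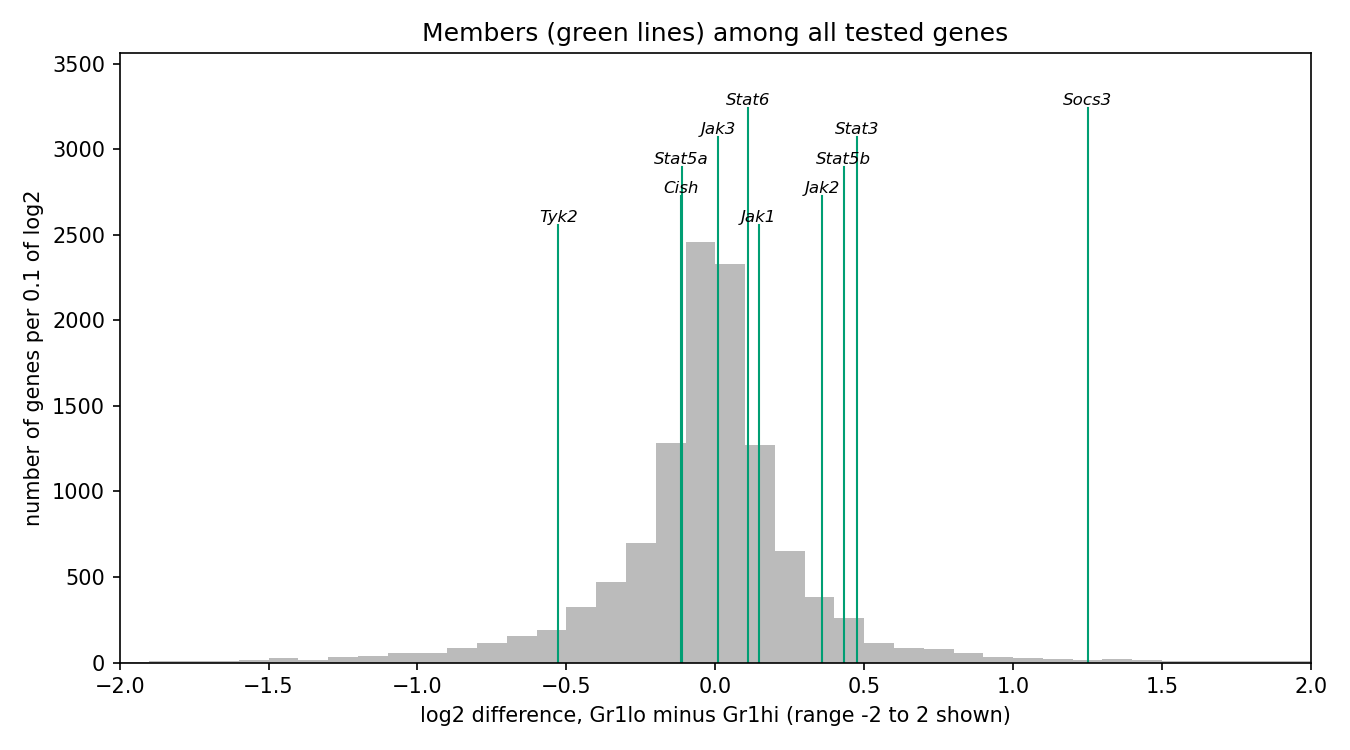
Distribution of the log2 difference (Gr1lo minus Gr1hi) over all tested genes, with the 10 members as green lines; 96 genes lie outside the range drawn. Socs3 stands far to the right at 1.25, while the other members lie between -0.53 and 0.48.

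Socs3, the inhibitor that binds the IL-6 receptor chain gp130 and the attached JAK, had intensities of 2732, 2549, 2676 and 2559 in Gr1lo monocytes, against 1161, 1174, 1171 and 932 in Gr1hi monocytes. Every Gr1lo array was more than 2-fold above every Gr1hi array. The means were 11.36 ± 0.05 in Gr1lo and 10.11 ± 0.16 in Gr1hi (log2 intensity, SD, n = 4 each). The difference of 1.25 (SE 0.08, 95% interval 1.07 to 1.43, limma adjusted p = 5.1e-07) corresponds to 2.38-fold. In absolute size it ranked 284th of 11546 genes, with 2.45% of genes differing more.

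The other 2 Socs3 probe sets were called in the same direction. The first of them had 1602, 1608, 1754 and 1445 in Gr1lo, against 630, 788, 730 and 603 in Gr1hi (2.34-fold, adjusted p = 1.7e-06). The other had 939, 969, 902 and 996 in Gr1lo, against 438, 458, 443 and 404 in Gr1hi (2.19-fold, adjusted p = 1.7e-07). The name of this last probe set has no suffix for matches elsewhere, whereas the other 2 carry the suffix of probe sets that may match further transcripts, and the 3 folds lay between 2.19 and 2.38.

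Cish, the SOCS family member best known as a STAT5 target, gave little signal in either subset. Its single probe set had 80.8, 83.1, 91.7 and 93.8 in Gr1lo, against 89.8, 92.2, 99.0 and 97.0 in Gr1hi, close to the table median of 81.9 that served as the filter. These ranges overlapped, and the difference of -0.11 (95% interval -0.27 to 0.04, adjusted p = 0.26) was not called. Cish, with 2 matches in its window, lay near the table median in both subsets, and Socs3, with 1 match, differed between them. A link between matches and RNA level was not tested.

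Stat3, the factor that carries IL-6 and IL-10 signals, had 2332, 2646, 2209 and 2436 in Gr1lo, against 1710, 1763, 1753 and 1678 in Gr1hi. All Gr1lo arrays lay above all Gr1hi arrays. The difference was 0.48 (SE 0.07, 95% interval 0.33 to 0.63, limma adjusted p = 0.00022), or 1.39-fold. Of its other 3 probe sets, 2 were called, at 1.48-fold (1799, 2018, 1674 and 1736 in Gr1lo, against 1163, 1186, 1353 and 1165 in Gr1hi) and at 1.58-fold. The last, at 93.5 to 104 in Gr1lo and 86.5 to 90.4 in Gr1hi, was near the table median; its groups did not overlap, and it missed the threshold (difference 0.16, adjusted p = 0.064).

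Stat5b and Stat5a are close relatives that act downstream of GM-CSF and related cytokines, and they lie side by side on chromosome 11 with Stat3. In the RefSeq annotation of GRCm38.p6, Stat5b spans 100780731 to 100859004, Stat5a 100859351 to 100885169 and Stat3 100886806 to 100939594. Only 346 bases separate Stat5b from Stat5a and 1636 separate Stat5a from Stat3. The test called the outer genes of this run, Stat5b and Stat3, and did not call Stat5a between them.

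Stat5b had 1159, 1174, 1150 and 1120 in Gr1lo, against 907, 799, 815 and 898 in Gr1hi, with no overlap. Its difference was 0.43 (SE 0.06, 95% interval 0.29 to 0.57, limma adjusted p = 0.00031), or 1.35-fold. The second Stat5b probe set was called too (difference 0.44, adjusted p = 0.0079), although its Gr1hi replicate 4, at 343, lay above the lowest Gr1lo value of 341.

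Stat5a had 568, 560, 542 and 542 in Gr1lo, against 638, 599, 543 and 615 in Gr1hi, so that Gr1hi replicate 3 stood within the Gr1lo range. The difference of -0.11 (95% interval -0.26 to 0.03, adjusted p = 0.23) was not called. Its dimmer probe set gave a difference of the opposite sign, 0.09, which was not called either (adjusted p = 0.34). The log2 ratio of Stat5b to Stat5a lay between 1.03 and 1.09 in the Gr1lo arrays and between 0.42 and 0.59 in the Gr1hi arrays. Its mean was 0.54 higher in Gr1lo, a description with no test, since this ratio was chosen after the values were seen.

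Stat6, which carries IL-4 and IL-13 signals, had 1918, 2013, 1838 and 2008 in Gr1lo, against 1951, 1743, 1774 and 1748 in Gr1hi. The ranges overlapped through Gr1hi replicate 1, and the difference was 0.11 (95% interval -0.03 to 0.25, adjusted p = 0.24). Its second probe set differed by 0.17 (adjusted p = 0.13). The intervals leave room for a change of up to 0.35 on the log2 scale toward Gr1lo.

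Among the kinases, Jak2 and Tyk2 moved in opposite directions. Jak2, the kinase of the GM-CSF, IL-3 and erythropoietin receptors, had 1001, 1088, 1260 and 978 in Gr1lo, against 863, 864, 756 and 879 in Gr1hi. The groups did not overlap, and the difference was 0.36 (SE 0.09, 95% interval 0.17 to 0.55, limma adjusted p = 0.0086), or 1.28-fold. The second Jak2 probe set had 644, 702, 716 and 641 in Gr1lo, against 478, 493, 459 and 523 in Gr1hi, and was called at 1.38-fold (adjusted p = 0.00025).

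Tyk2, the kinase of the type I interferon and IL-12 family receptors, had 477, 488, 451 and 475 in Gr1lo, against 695, 679, 654 and 696 in Gr1hi. No array of either subset fell in the range of the other. The difference was -0.53 (SE 0.06, 95% interval -0.65 to -0.40, limma adjusted p = 3e-05), a 1.44-fold higher level in Gr1hi. The dimmer Tyk2 probe set, at 126 to 144 in Gr1lo and 135 to 157 in Gr1hi, overlapped and was not called (difference -0.11, adjusted p = 0.26). Averaging both probe sets gave -0.32, still called (adjusted p = 0.00044). The log2 ratio of Jak2 to Tyk2, also chosen after the values were seen and not tested, was 0.89 higher in Gr1lo on average.

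Jak1, the kinase shared by interferon, gp130 and common gamma chain receptors, had 1740, 1958, 1484 and 1796 in Gr1lo, against 1692, 1544, 1578 and 1468 in Gr1hi. These values overlapped, and the difference of 0.15 (95% interval -0.04 to 0.34, adjusted p = 0.24) was not called. The 3 Jak1 probe sets differed in their calls. The dimmest had 260, 275, 238 and 275 in Gr1lo, against 183, 181, 218 and 204 in Gr1hi, and was called at 1.34-fold (adjusted p = 0.0017), while the remaining one differed by 0.02 (adjusted p = 0.83). With the mean of the 3 probe sets Jak1 was called (difference 0.20, adjusted p = 0.034), so its call rests on which probe sets are used.

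Jak3, the partner of the common gamma chain and best known from lymphocytes, had 157, 181, 173 and 173 in Gr1lo, against 168, 180, 166 and 164 in Gr1hi. The ranges nearly coincided. Its difference of 0.01 (95% interval -0.13 to 0.15, adjusted p = 0.94) was the smallest of the 10 members.

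**Figure D3:**
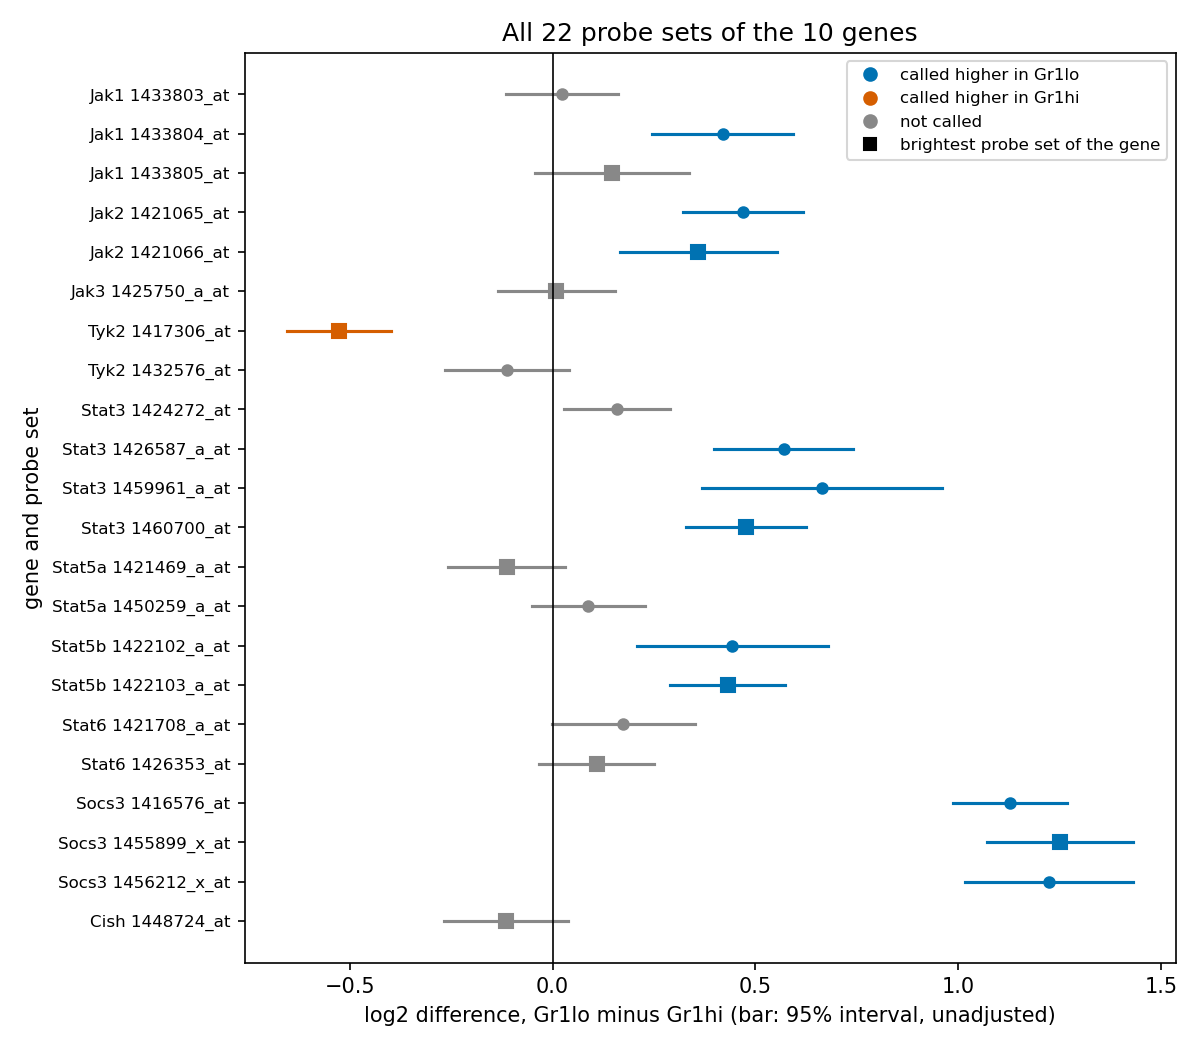
Log2 difference (Gr1lo minus Gr1hi) with its unadjusted 95% interval for each of the 22 probe sets; squares mark the brightest probe set of a gene, blue and orange mark calls at an adjusted p under 0.05, and grey marks no call. The 3 Socs3 probe sets lie together near 1.2, those of Stat3, Stat5b and Jak2 mostly near 0.4 to 0.6, and the probe sets of Jak1 and of Tyk2 spread apart.

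The rest of the pathway was read from 9 lists by role, with 65 genes tested. Of these, 28 were called (43.1%, against 32.5% of all genes), 15 higher in Gr1lo and 13 higher in Gr1hi. The median size of their difference was 0.22, beside 0.13 for all genes. Some genes stand in more than 1 list.

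Among the other STATs, Stat2, the partner in the interferon-activated complex ISGF3, had 226, 308, 284 and 271 in Gr1lo, against 393, 471, 450 and 538 in Gr1hi. It fell by 0.77 (adjusted p = 0.00024), in the same direction as Tyk2, which serves the same interferon receptor. Stat4 differed by -0.12 and was not called. Of 6 other SOCS genes 2 were higher in Gr1lo and 1 higher in Gr1hi (50% called, against 32.5% of all genes). Socs6, known for acting on receptor tyrosine kinases, had 301, 394, 329 and 298 in Gr1lo, against 779, 677, 689 and 857 in Gr1hi. Its difference of -1.19 (2.28-fold higher in Gr1hi, adjusted p = 4.9e-06) was close in size to that of Socs3 and of the opposite sign. Socs5 rose by 0.37 (adjusted p = 0.002) and Socs4 by 0.26 (adjusted p = 0.033).

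Phosphatases and other brakes had 4 of 12 genes called (33.3%, near the 32.5% of all genes), and these 4 were higher in Gr1lo. Cblb, a ubiquitin ligase that restrains receptor signalling, had 938, 1383, 1222 and 1200 in Gr1lo, against 571, 539, 447 and 549 in Gr1hi (2.24-fold, adjusted p = 1.4e-05). Ptpn11, the phosphatase SHP2 that docks on the same gp130 site as SOCS3, rose by 0.85 (adjusted p = 1.1e-05). The other 2 called were Ptpn6, the phosphatase SHP1, at 0.46 (adjusted p = 0.00025), and Ptpn2, at 0.22 (adjusted p = 0.038), both named after their values were seen. The list's median difference was 0.14.

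The receptors were divided. Of 8 gp130 and IL-10 type receptor genes, 2 were higher in each subset (50% called, against 32.5% of all genes). Il6st, which encodes gp130 itself, had 338, 368, 259 and 364 in Gr1lo, against 804, 812, 709 and 642 in Gr1hi. It was therefore 2.25-fold higher in Gr1hi (difference -1.17, adjusted p = 1.5e-05), opposite in direction to its inhibitor Socs3. Csf3r, the G-CSF receptor and another partner of SOCS3, also fell, by 0.56 (adjusted p = 0.00014). The IL-10 receptor chains Il10ra and Il10rb rose by 0.42 and 0.47 (adjusted p = 0.0011 and 0.00015), in the direction of Stat3.

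Of 11 common beta, common gamma and IL-4 type receptor genes, 1 was higher in Gr1lo and 3 higher in Gr1hi. The share called was 36.4%, near the 32.5% of all genes. Csf2rb2, the beta chain used by mouse IL-3, was 2.02-fold higher in Gr1hi (adjusted p = 1.7e-05), and Il3ra, its alpha chain, 1.74-fold higher in Gr1hi (adjusted p = 4.6e-05). Csf2rb2 has a near-identical neighbour, Csf2rb, so its value may hold signal of both. The probe set of Csf2rb had 1642, 1837, 1732 and 1553 in Gr1lo, against 2010, 2188, 2306 and 1944 in Gr1hi. It was also called higher in Gr1hi (1.25-fold, adjusted p = 0.0075), and was named after its values were seen. Crlf2, the receptor of TSLP, rose by 0.38 (adjusted p = 0.001). Of 5 interferon and IL-12 type receptor genes 40% were called, against 32.5% of all genes. Ifngr1 rose by 0.44 (adjusted p = 0.00016) and Ifnar1 fell by 0.32 (adjusted p = 0.017). In the list of homodimeric receptors Epor was the only gene tested and was not called (difference -0.03, adjusted p = 0.77).

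Known targets of the STATs were called in both directions, and more were left uncalled than called. Of 14 STAT3 and STAT5 targets 2 were higher in Gr1lo, 4 higher in Gr1hi and 8 not called, with a median difference of -0.03. The share called was 42.9%, against 32.5% of all genes (14.1% higher in Gr1lo, 18.5% higher in Gr1hi). Bcl6, a repressor, rose by 0.95 (adjusted p = 1.4e-06) and the myeloid factor Cebpb by 0.78 (adjusted p = 2e-06), whereas Cebpd fell by 1.22 (adjusted p = 1.4e-05) and Bcl3 by 0.64 (adjusted p = 0.00036). Of 9 STAT6 targets 3 were higher in Gr1lo, 1 higher in Gr1hi and 5 not called (44.4% called). Tgm2, a transglutaminase, was 12.5-fold higher in Gr1lo (adjusted p = 1.7e-09) and Retnla, a secreted resistin-like protein, 3.46-fold higher (adjusted p = 0.00039). Retnla ranged from 147 to 474 in the Gr1lo arrays, and its Gr1hi values of 74.9 to 96.6 lay near the table median of 81.9. The chitinase-like Chil3 was 11.7-fold higher in Gr1hi (adjusted p = 5.3e-08).

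**Figure D4:**
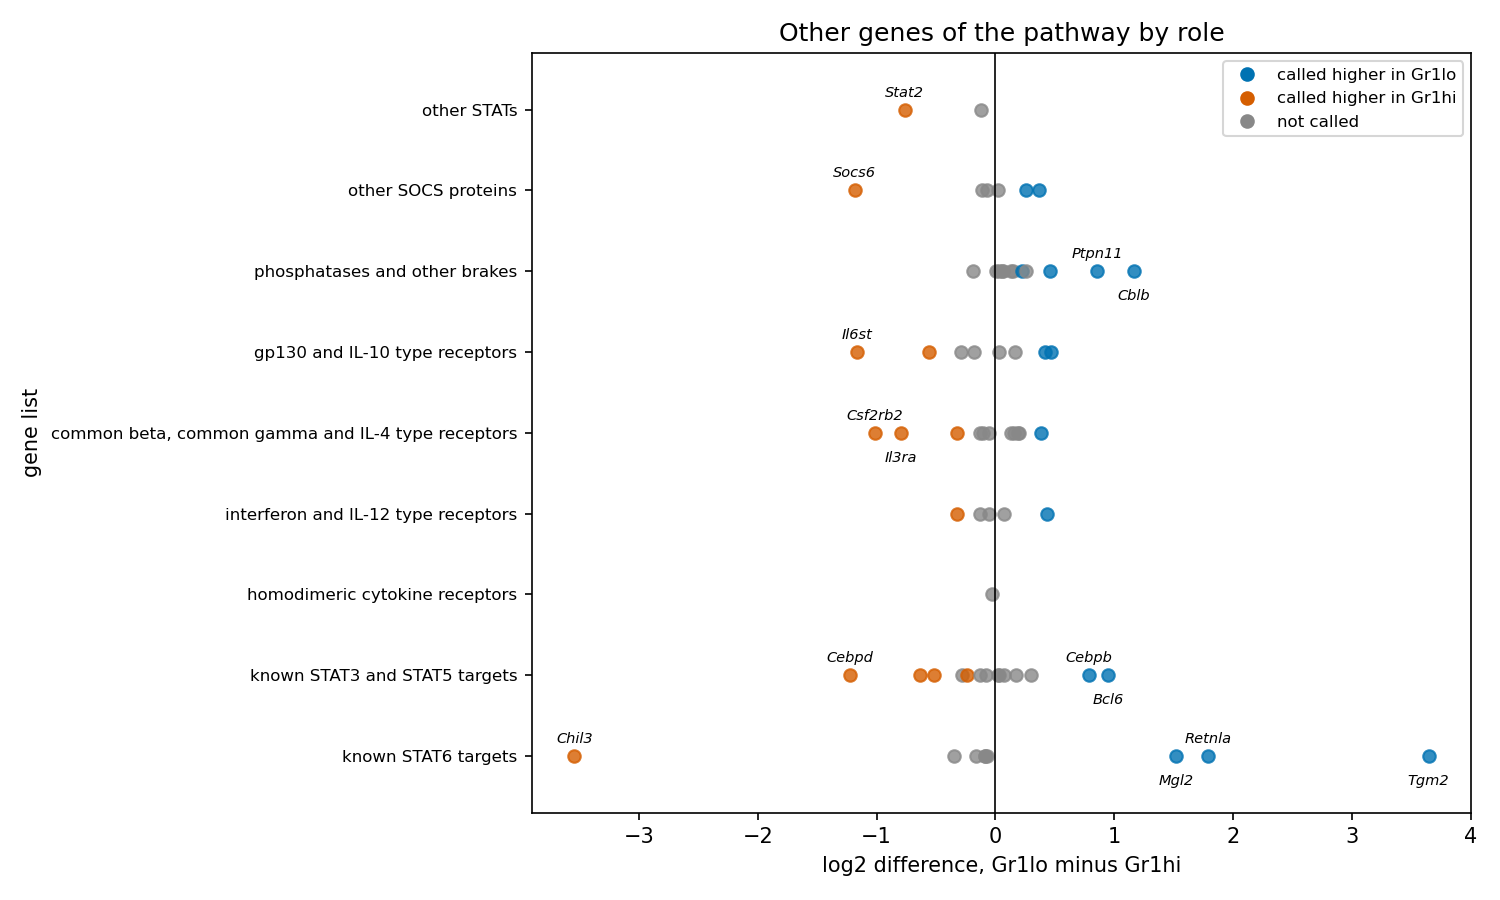
Log2 difference (Gr1lo minus Gr1hi) of the other tested genes of the pathway, 1 point per gene and 1 row per list; blue and orange mark calls in each direction, grey marks no call, and called genes with a difference of at least 0.7 are named. Called receptors and STAT targets lie on both sides of 0.

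Socs3 is also an early response gene, so a list of 25 immediate early and stress genes was read beside it. The list's summed intensity was 39780 to 43820 in Gr1lo and 28600 to 32140 in Gr1hi. Bright genes weigh most in this sum, among them the subset gene Nr4a1 (6852 to 7418 in Gr1lo, 2804 to 3366 in Gr1hi). Of 22 genes tested 12 were higher in Gr1lo and 3 higher in Gr1hi (68.2% called). Among all genes 32.5% were called, 14.1% higher in Gr1lo and 18.5% higher in Gr1hi. The genes of the list did not share a direction: Jun rose by 1.60 (adjusted p = 8.8e-05), while Fos fell by 2.25 (adjusted p = 9.8e-05). The part of this response in the Socs3 result was not tested.

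The monocyte markers Lyz2 and Csf1r lay above the table median in all 8 arrays, as did all 10 measured markers of that list. Of 11 genes known to tell the subsets apart all 11 were called, 7 higher in Gr1lo (among them Nr4a1) and 4 higher in Gr1hi (among them Ccr2). Marker lists of other cells were summed as intensity per array. The sums were 1296 to 1600 in Gr1lo and 962 to 1110 in Gr1hi for NK cells (9 genes), and 965 to 1149 in Gr1lo and 970 to 1096 in Gr1hi for T cells (9 genes). For B cells (9 genes) they were 807 to 1138 in Gr1lo and 1074 to 1538 in Gr1hi. For neutrophils (11 genes) they were 815 to 1150 in Gr1lo and 2160 to 2891 in Gr1hi, and Mmp8 took the largest part of the sum in Gr1hi. All 4 neutrophil markers called of 9 tested (Mmp8, S100a8, Lcn2 and Mpo) were higher in Gr1hi, and Cxcr2 lay below the table median in every array. The share called was 44.4%, against 32.5% of all genes (14.1% higher in Gr1lo, 18.5% higher in Gr1hi). Of 5 B cell markers tested 3 were higher in Gr1hi (60% called), and of 5 NK cell markers 2 were higher in Gr1lo (40%). Of 7 dendritic cell markers 1 was higher in Gr1lo and 3 higher in Gr1hi (57.1%). No T cell, platelet or red cell marker was called. Dendritic cell markers (9 genes) summed to 2523 to 2854 in Gr1lo and 2761 to 3145 in Gr1hi. Platelet markers (8 genes) summed to 2226 to 5873 in Gr1lo and 1986 to 4616 in Gr1hi, and red cell markers (5 genes) to 1468 to 5852 in Gr1lo and 1397 to 4118 in Gr1hi, highest in replicate 1 of both subsets. No marker is at 0 on this scale. The part of such cells in the members' results was not tested, and in sorted bulk samples fewer cells with a transcript and less RNA per cell cannot be told apart.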

How the data were processed

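Probe set intensities of 8 arrays on a linear scale were used as the authors deposited them. GCRMA and MAS5 appear in the submitters' processing notes without version, role or order, and per the labels' protocols in vitro transcription ran for 64 h, which can alter ratios. The 8 array medians lay between 80.6 and 83.1. Intensities were taken to log2 with no pseudocount. The two-sided test was limma (version 3.58.1, R 4.3.3; lmFit, then eBayes, without a block), adjusted by Benjamini-Hochberg across the 22831 probe sets above the table median in at least 4 arrays, and a threshold of 0.05. Each gene was represented by its brightest tested probe set. Arrays give no read depth, and their number limits the precision (median SE 0.08). On simulated data of 22831 probe sets the fit recovered 4% of changes of 0.25, 66% of 0.5 and 98% of 1. The simulation held 50 changed probe sets per size and gave 144 calls, against 7108 in the real data. With fewer changes the adjusted threshold is harder to pass, so these shares do not measure the sensitivity here. Named were all members and, in each pathway list, the 2 called genes with the largest difference in each direction (in a list with no call, the 2 brightest). Stat4, Ptpn6, Ptpn2 and Csf2rb were named beyond this rule. Members and lists were chosen with earlier results of these data known. Gene names came from the platform annotation, and promoters from RefSeq (GRCm38.p6). Alternatives were single arrays left out, the sample number as a replicate block, and other filters, normalizations, scales, variance models, array weights, probe set rules and thresholds; the 2 gene ratios and their alternatives were added after seeing the data.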

Additional observations from a re-analysis of the deposited data

Results flagged for a closer look

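In 4 of 44 groups of 4 arrays (22 probe sets in 2 subsets), a single array stood apart from the other 3 by a gap above Dixon's 95% limit for 4 values, where chance flags about 1 group in 20. All 4 were Gr1hi arrays. Jak2 stood at 9.56 in Gr1hi replicate 3, against 9.75 to 9.78 in the other 3 (log2 intensity, brightest probe set). A Stat3 probe set that is not the brightest stood at 10.40 in the same array, against 10.18 to 10.21. Stat6 stood at 10.93 in Gr1hi replicate 1, against 10.77 to 10.79. Socs3 stood at 9.87 in Gr1hi replicate 4, against 10.18 to 10.20. The gene calls of Jak2, Stat3 and Socs3 held without each of these arrays, and Stat6 was not called with or without them.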

How the results depend on the processing

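Under 16 alternatives the number of called member probe sets was 12 in each, and under 18 alternatives the number of called member genes was 5, or 6 with the mean of a gene's probe sets, when Jak1 was called too. Leaving out each array in turn gave 5 member genes, 12 member probe sets, 25 to 29 of the 65 pathway genes and 6229 to 6761 probe sets in all. Over all alternatives the pathway count ran from 24 (threshold 0.01) to 32 (log2 of the value plus 50). The filter also changed the number tested, so these counts do not show a stable share. With no filter 28 of 81 pathway genes were called, beside 7153 of all 45037 probe sets. With the filter at the 75th percentile 29 of 48 were called, beside 5579 of all 11567 probe sets. That filter left 8 member genes and 17 member probe sets. Socs3 (differences 1.13 to 1.28), Stat3 (0.43 to 0.52), Stat5b (0.40 to 0.46), Jak2 (0.28 to 0.41) and Tyk2 (-0.55 to -0.32) kept their direction and call under all 17 alternatives run on single genes. Jak2 had the highest adjusted p of these, 0.026 without Gr1hi replicate 3. The Jak3 difference changed sign with array weights (-0.0128) and when single arrays were left out (-0.0192 to 0.0504), always uncalled; its interval spans 0. With the sample number as a replicate block, 7164 probe sets were called against 7108 without it, and 5 member genes in both; the block changed no member's call. The labels do not say that equal numbers mark a shared sort. The correlation of same-numbered deviations was 0.27, 0.34, -0.03 and -0.10, so the numbers were not taken as pairs. Gr1lo replicate 3 correlated best with Gr1hi replicate 4, and Gr1lo replicate 4 with Gr1hi replicate 3. Replicate 2 of each subset correlated best with replicate 2 of the other. A block with crossed numbers was not run, so the block above cannot show whether sorts were shared in another order. Quantile normalization and the added 50 left the shift of the ratio of Stat5b to Stat5a at 0.54 and 0.52, and of Jak2 to Tyk2 at 0.88 and 0.83. Signal near the table median limits Cish, the dimmest Stat3 probe set and, in Gr1hi, the STAT6 target Retnla.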
